A study of Solanum lycopersicum with 15 samples.

Results

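In tomato (Solanum lycopersicum) roots, 81 of 34075 genes stood lower with each of 3 nitrogen forms than without nitrogen. The 15 libraries of polyadenylated RNA came from roots kept in 5 ways, 3 libraries for each. Control roots (-Fe-N) received no iron and no nitrogen. The other roots were resupplied with iron, either alone (+Fe-N) or together with nitrate (+Fe+Ni), ammonium (+Fe+A) or urea (+Fe+U), so that all roots given nitrogen had iron as well. The sources used here give no cultivar, plant age, dose or time after resupply, and they do not say whether the libraries of a regime came from separate plants. The p-values therefore measure the spread between these libraries, which may be technical.

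The 81 genes were chosen from the measured values themselves. Expression was given as FPKM (fragments corrected for transcript length and for the number mapped in a library) and averaged per regime as log2(FPKM + 1). A gene was taken when at least 1 regime had a mean of 5 FPKM or more, when the widest gap between its 5 sorted regime means separated nitrate, ammonium and urea below from control and iron alone above, when that gap was at least 1.5-fold, and when its highest library with nitrogen lay below its lowest library without. They made up 0.589% of the 13750 genes that met the level condition. Of these 13750, 319 had the same order with no overlap of libraries at any gap, and 22 more genes met the order and the gap but had overlapping libraries. All differences between roots with and without nitrogen are therefore a description and carry no test.

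Roots take up nitrate, ammonium and urea through separate transporters. Nitrate is reduced to ammonium inside the plant and urea is split into ammonium and carbon dioxide by urease, so the 3 forms meet at ammonium, which is built into glutamine. Plants short of nitrogen raise genes for its uptake and for recovering nitrogen from their own tissue, and many of these are turned down when nitrogen returns, in part through nitrate sensing and in part through products of assimilation such as glutamine. Which of the 81 genes have such roles is not stated here, because the values come with gene identifiers alone and 0 of these identifiers matched the annotation table at hand. For the same reason no sequences are shown and the roots were not checked against marker genes of their cell types. In whole roots, fewer cells of a type and less RNA per cell cannot be told apart.

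The libraries had FPKM sums of 546848 to 589451. Steps between the low values of rarely detected genes put their depths at 0.88 to 1.28 relative to each other, and all 105 pairwise ratios fitted these depths to 0.05 (log2). The absolute depth is unknown. The tests covered 18889 genes that reached 1 FPKM in 3 or more libraries, and all 81 were among them. Their median level over the 15 libraries was 21 FPKM, against 9.48 FPKM for all tested genes and 15.3 FPKM for the genes that met the level condition.

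The widest gap, 1.81 on the log2 scale, was that of Solyc11g069940.1.ITAG4.0 on chromosome 11. Its levels were 212, 222 and 219 FPKM in control roots, 164, 164 and 218 FPKM with iron alone, 44.6, 55.3 and 53.3 FPKM with nitrate, 24.1, 38.4 and 41.1 FPKM with ammonium and 37.9, 50.8 and 40.4 FPKM with urea. Its lowest library without nitrogen was thus far above every library with nitrogen, while the urea libraries overlapped with those of the other forms. Relative to its mean with iron alone of 182 ± 31.1 FPKM (SD, n = 3), 28.1% was left with nitrate, 19% with ammonium and 23.7% with urea. Solyc09g011490.ITAG4.0 on chromosome 9 came next with a gap of 1.63. Its values were 18.6, 19 and 24.6 FPKM in control roots, 19, 22 and 17.1 FPKM with iron alone, 7.55, 5.33 and 4.17 FPKM with nitrate, 2.95, 4.9 and 3.14 FPKM with ammonium and 2.05, 1.71 and 3.64 FPKM with urea. Here control and iron alone overlapped, and urea lay below nitrate in every library.

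**Figure D1:**
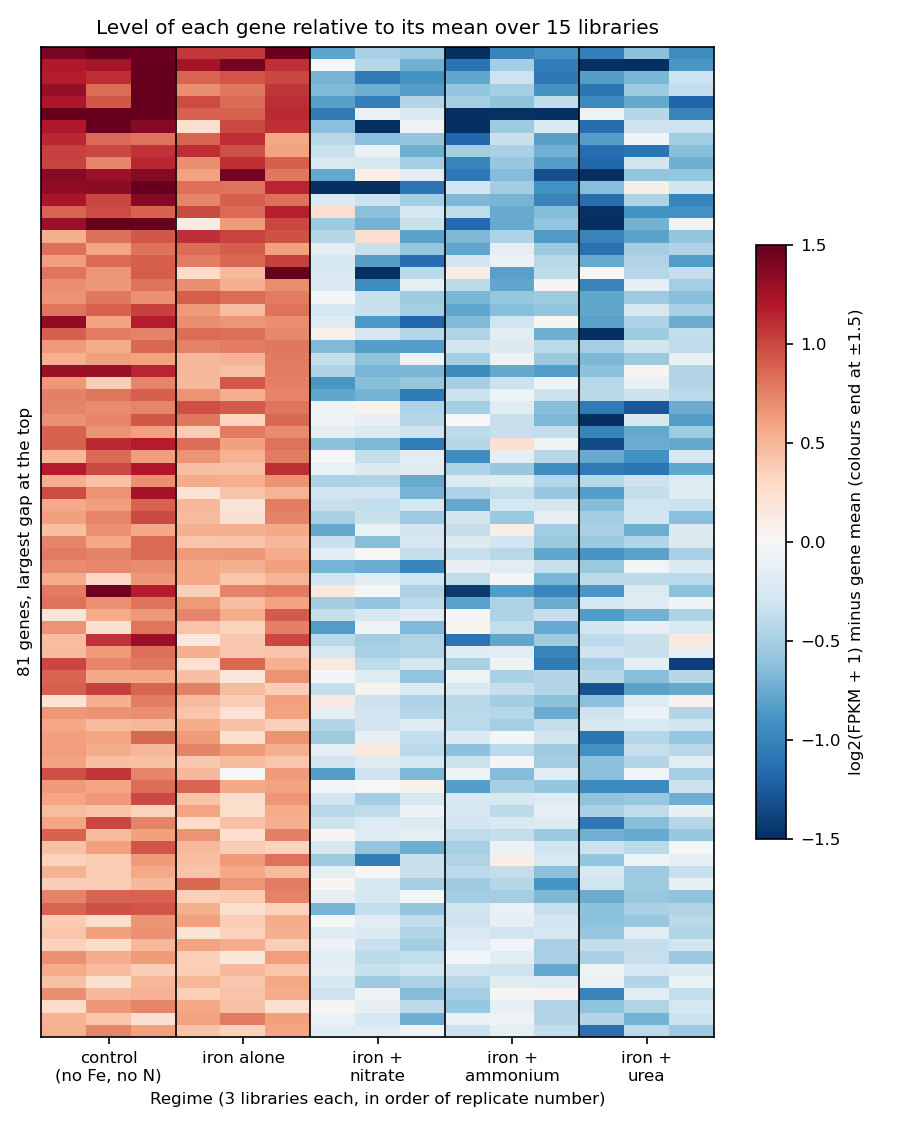
Each row is 1 of the 81 genes, ordered by gap with 1.81 at the top and 0.59 at the bottom, and each column is 1 of the 15 libraries. Colour gives log2(FPKM + 1) minus the mean of the gene over all libraries, red for higher and blue for lower. The 6 columns without nitrogen are mostly red and the 9 with nitrogen mostly blue, a split that the choice of genes imposes.

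The most abundant of the 81 genes was Solyc12g088670.ITAG4.0 on chromosome 12. Its libraries gave 571, 530 and 630 FPKM in control roots, 576, 569 and 622 FPKM with iron alone, 281, 285 and 232 FPKM with nitrate, 339, 345 and 289 FPKM with ammonium and 291, 314 and 340 FPKM with urea. Control and iron alone overlapped. The nitrate libraries lay just below those with ammonium and urea, differences that did not pass the test (limma, adjusted p = 0.12 for both), and no library with nitrogen exceeded 345 FPKM. The second most abundant was Solyc08g082090.1.ITAG4.0 on chromosome 8, with means of 287 ± 78.7 FPKM in control roots, 216 ± 68.3 FPKM with iron alone, 105 ± 3.62 FPKM with nitrate, 83.5 ± 16.6 FPKM with ammonium and 129 ± 28.2 FPKM with urea (SD, n = 3). Its 2 regimes without nitrogen varied more between libraries than its nitrate regime, from 162 to 353 FPKM against 101 to 108 FPKM. The lowest of these, iron-alone replicate 1 at 162 FPKM, was barely above urea replicate 3 at 161 FPKM.

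Across the 81 genes the gap had a median of 0.79 and reached 1 or more in 22. The median log2 change against iron alone was -0.95 with nitrate, -1.0 with ammonium and -1.14 with urea, whereas the median of all tested genes was -0.052, -0.033 and -0.095. In single genes it ranged from -2.46 to -0.59 with nitrate, from -2.54 to -0.60 with ammonium and from -2.59 to -0.61 with urea. Against control the medians were -1.09, -1.12 and -1.32, beside -0.041, -0.021 and -0.087 for all tested genes. These comparisons share their control or iron-alone libraries.

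On the FPKM scale the median gene kept 49.2% of its iron-alone mean with nitrate, 47.1% with ammonium and 44.5% with urea. A level of 50% or less was reached by 42 genes with nitrate, 47 with ammonium and 53 with urea, and 30 genes reached it with all 3 forms. Levels of 25% or less were rarer, in 2, 6 and 8 genes. None of the 81 genes was listed at 0 in any library, and 0 had a regime mean under 1 FPKM. The lowest regime means were 1.32 FPKM with nitrate, 1.29 FPKM with ammonium and 1.15 FPKM with urea. Single libraries went as low as 0.146 FPKM (Solyc04g079890.ITAG4.0, ammonium replicate 1), so these genes stood lower with nitrogen without being listed at 0.

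At the edge of the choice, Solyc05g013440.ITAG4.0 with a gap of 0.586 and Solyc02g070280.ITAG4.0 with 0.59 were just inside. The first had 107 ± 7.53 FPKM in control roots, 94.7 ± 8.09 FPKM with iron alone, 62.7 ± 3.04 FPKM with nitrate, 56.9 ± 5 FPKM with ammonium and 43.4 ± 11 FPKM with urea (SD, n = 3). Solyc01g088090.ITAG4.0 with 0.579 and Solyc01g107560.ITAG4.0 with 0.574 were just outside. The latter had 37.8 ± 1.23 FPKM in control roots, 37.9 ± 6.91 FPKM with iron alone, 21.3 ± 1.17 FPKM with nitrate, 24.9 ± 0.544 FPKM with ammonium and 18.2 ± 1.63 FPKM with urea (SD, n = 3). Genes on either side of the threshold thus had similar profiles.

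Averaged over the 81 genes, log2(FPKM + 1) was 5.19, 5.18 and 5.31 in the control libraries and 5.03, 5.02 and 5.15 with iron alone. It was 4.09, 4.01 and 3.96 with nitrate, 3.91, 4.06 and 3.88 with ammonium and 3.67, 3.96 and 3.97 with urea. The control libraries were all above the iron-alone libraries, and urea replicate 1 was the lowest library. That library was also the lowest over all tested genes, at 3.41 in a range of 3.41 to 3.58, and its part in the differences between forms was not tested other than by leaving it out.

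Without nitrogen, iron alone was compared with control, a contrast that lies on one side of the choice. The choice bounds the size of this difference, since that between control and iron alone may not exceed the gap, but not its direction. Iron alone stood below control in 60 of the 81 genes and above it in 21. No such count over all tested genes was made, so this split of the 81 has no background. The median difference was -0.14, with a range from -0.97 (Solyc04g018110.1.ITAG4.0, which did not pass at an adjusted p of 0.088 by limma) to 0.35, and the median of all tested genes was 0.013. By limma with Benjamini-Hochberg adjustment over all tested genes, 2 of the 81 fell and 0 rose at an adjusted p under 0.05, beside 6.4% of all tested genes called in either direction, 3.43% falling and 2.97% rising. At an unadjusted p under 0.05, 16 were lower and 1 was higher, beside 9.84% and 11.2% of all tested genes.

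Of the 2 called genes, Solyc04g054500.ITAG4.0 on chromosome 4 fell more, from 143, 145 and 130 FPKM in control roots to 82.9, 79.2 and 100 FPKM. The log2 difference was -0.67 with a standard error of 0.14 (limma, adjusted p = 0.014). Solyc04g081290.ITAG4.0, also on chromosome 4, went from 36.8, 39.1 and 38.8 FPKM to 29.2, 23.7 and 25.3 FPKM, a log2 difference of -0.54 with a standard error of 0.10 (limma, adjusted p = 0.0093). In both genes the regimes did not overlap, and the levels with nitrogen were lower still, at most 59.2 and 18.3 FPKM. The call of Solyc04g054500.ITAG4.0 was lost without control replicate 2 (adjusted p = 0.055) and without replicate 1 or 2 of iron alone (0.057 and 0.06), with 24 alternatives giving 0.0032 to 0.06, so the count of falling genes was then 1. The count was 4 without iron-alone replicate 3, without urea replicate 1 or with equal FPKM totals.

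**Figure D2:**
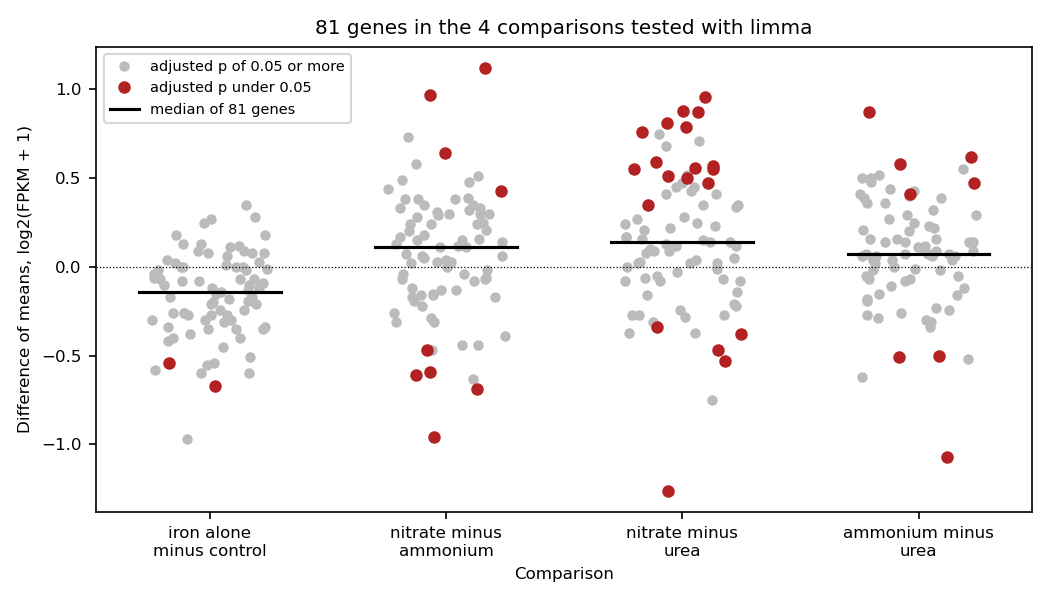
Each point is 1 of the 81 genes and the vertical axis is the difference between 2 regime means of log2(FPKM + 1). Red points passed an adjusted p under 0.05 (limma) and black lines are medians of the 81 genes, from -0.14 for iron alone minus control to 0.14 for nitrate minus urea. Calls were most frequent between nitrate and urea.

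The regime means of the 3 forms spanned a median of 0.41 on the log2 scale, from 0.03 to 1.26 in single genes. Means of 3 libraries differ through the spread between libraries alone, so this span is a description. The lowest mean was that with urea in 42 genes, with ammonium in 21 and with nitrate in 18, and the most frequent order of all 5 regimes, in 19 genes, ran from control through iron alone, nitrate and ammonium down to urea. The median of all tested genes was also lower with urea, by a log2 difference of 0.059 from nitrate and 0.072 from ammonium, beside medians of 0.14 and 0.07 for the 81 genes. With size factors the medians of the 81 genes were 0.08 and 0.00 and those of all tested genes 0.003 in both comparisons, with quantile normalization the 81 genes had 0.08 and 0.02, and without urea replicate 1 they had 0.06 and 0.00. Without any other single library with nitrogen they lay between 0.11 and 0.18 for nitrate and between 0.03 (without ammonium replicate 2) and 0.13 for ammonium. The lowest mean was that with urea in 32 genes with size factors and in 32 without urea replicate 1. By test, 25 of the 81 genes differed between at least 1 pair of forms and 56 did not pass in any pair, which does not show that the forms acted alike on them. The share of all tested genes that passed in at least 1 pair was not computed, so the 25 cannot be set beside a background.

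The choice also bounds the differences between forms, since no step between neighbouring form means may exceed the gap, but not their direction. Nitrate and urea differed most often. Of the 81 genes, 15 were higher and 5 lower with nitrate (limma, adjusted p under 0.05), beside 11.3% and 8.31% of all tested genes. Both directions together made 24.7% of the 81, against 19.6% of all tested genes. In a separate fit of the 12649 genes with a mean of at least 5 FPKM, which tested 75 of the 81, 28% of these and 25.8% of all were called, so the share was near the background at this level of expression. In that fit the shares were 12% and 10.1% for nitrate against ammonium, 12% and 16.3% for ammonium against urea, and 2.67% and 9.68% for iron alone against control. The 2 largest differences towards nitrate were those of Solyc09g011490.ITAG4.0, described above (log2 difference 0.96, standard error 0.23, adjusted p = 0.0097), and of Solyc09g072700.ITAG4.0 on chromosome 9. The latter had 26.9, 14.2 and 18.6 FPKM with nitrate and 7.39, 11.6 and 11.5 FPKM with urea (log2 difference 0.88, standard error 0.20, adjusted p = 0.0072), down from 43.1 ± 1.76 FPKM in control roots (SD, n = 3).

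In the other direction, Solyc03g116910.ITAG4.0 on chromosome 3 showed the widest difference between any forms. Its levels were 87.8, 88.6 and 116 FPKM in control roots, 61.5, 60.9 and 76.6 FPKM with iron alone, 7.99, 11.1 and 15.4 FPKM with nitrate, 27.8, 23.5 and 17.7 FPKM with ammonium and 21.6, 36.4 and 27.7 FPKM with urea. Nitrate lay below urea by 1.26 on the log2 scale (standard error 0.23, limma, adjusted p = 0.0016) and below ammonium with a log2 difference of -0.96 (standard error 0.23, adjusted p = 0.021), and in neither case did libraries overlap. With nitrate 17.3% of its iron-alone level was left, the lowest share for nitrate among the 81 genes, against 34.7% with ammonium and 43.1% with urea. Solyc08g075540.5.ITAG4.0 on chromosome 8 was also lower with nitrate than with urea, at 17.1, 16.5 and 13.9 FPKM against 18.9, 27.5 and 24.3 FPKM (log2 difference -0.53, standard error 0.12, adjusted p = 0.0051).

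With size factors the calls among all tested genes turned from 2135 higher and 1569 lower with nitrate to 1743 and 1981. When only nitrate and urea libraries were fitted, 8 of the 81 genes were higher with nitrate, and the calls of Solyc09g011490.ITAG4.0, Solyc09g072700.ITAG4.0 and Solyc08g075540.5.ITAG4.0 were lost (adjusted p = 0.058, 0.067 and 0.06, over ranges of 0.0028 to 0.058, 0.002 to 0.067 and 5.4e-04 to 0.06). That of Solyc03g116910.ITAG4.0 against ammonium was lost in this kind of fit (adjusted p = 0.094) and without nitrate replicate 1 or 2 (0.083 and 0.057) and without ammonium replicate 1 or 2 (0.1 and 0.068). Its adjusted p there lay between 0.01 and 0.1.

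**Figure D3:**
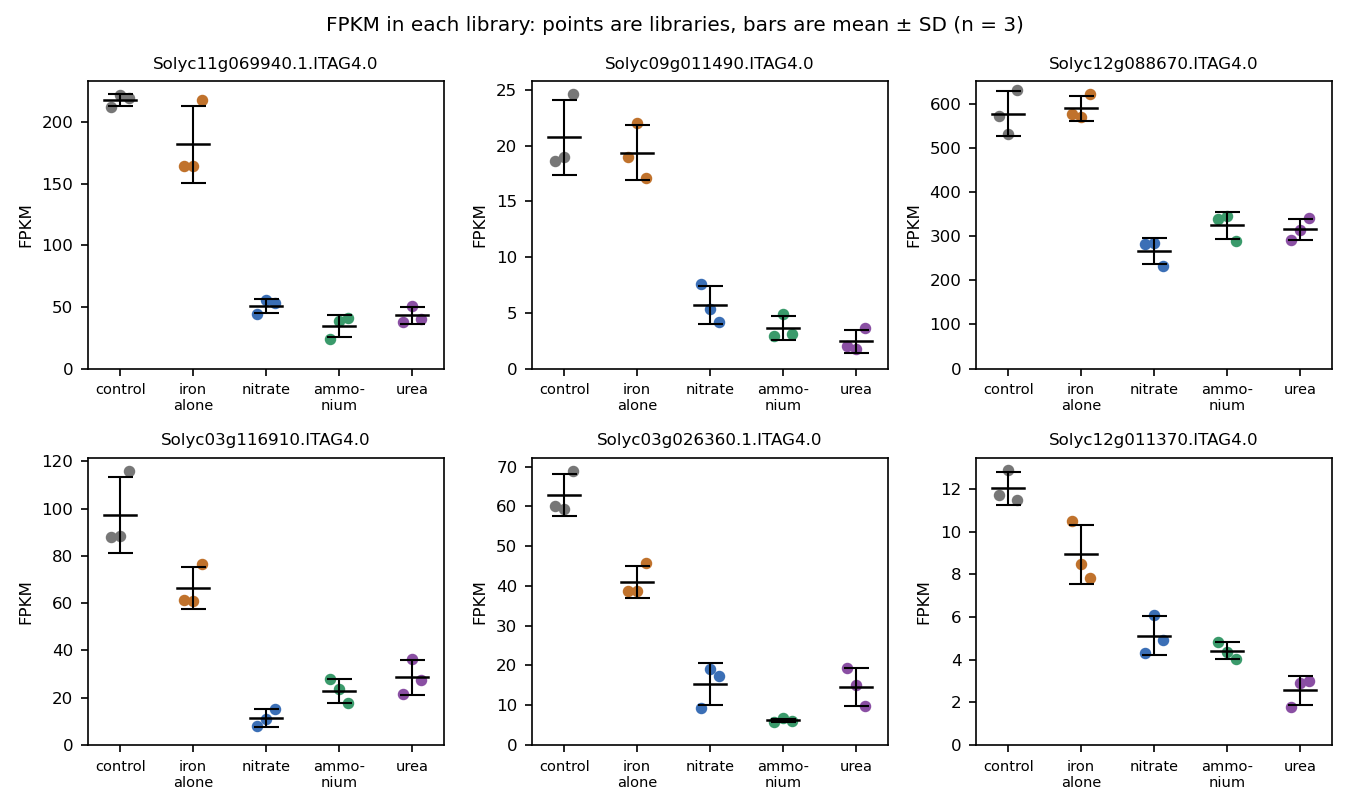
Points give FPKM in each library of 6 of the 81 genes, and bars the mean and SD of 3 libraries per regime. The upper row holds the 2 genes with the widest gaps and the most abundant gene, and the lower row 1 gene each that was called lower with nitrate, ammonium or urea than with both other forms. In all 6 every library with nitrogen lies below every library without, which the choice of genes imposes.

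Between nitrate and ammonium 4 of the 81 genes were higher and 5 lower with nitrate (limma, adjusted p under 0.05), beside 3.38% and 3.67% of all tested genes, or 7.06% in either direction. Solyc03g026360.1.ITAG4.0 on chromosome 3 was the 1 gene called lower with ammonium than with both other forms. It had 60.1, 59.4 and 69 FPKM in control roots, 38.7, 38.7 and 45.7 FPKM with iron alone, 9.27, 19.2 and 17.4 FPKM with nitrate, 5.81, 6.69 and 6.1 FPKM with ammonium and 19.3, 15 and 9.7 FPKM with urea. The ammonium libraries were close together and below all others, while nitrate and urea overlapped. Nitrate exceeded ammonium by a log2 difference of 1.12 (standard error 0.24, adjusted p = 0.011) and ammonium stood below urea with one of -1.07 (standard error 0.24, adjusted p = 0.012).

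Solyc01g111250.ITAG4.0 on chromosome 1 also stood higher with nitrate, at 9.2, 8.01 and 5.63 FPKM against 2.38, 4.12 and 3.64 FPKM with ammonium (log2 difference 0.97, standard error 0.23, limma, adjusted p = 0.02). Solyc02g084980.ITAG4.0 on chromosome 2 was lower with nitrate, at 9.62, 9.17 and 6.84 FPKM against 11.1, 18.3 and 14.4 FPKM with ammonium (log2 difference -0.69, standard error 0.19, adjusted p = 0.043). The last call was lost in 14 of 24 alternatives, with adjusted p up to 0.16 without nitrate replicate 3 or ammonium replicate 2. That of Solyc01g111250.ITAG4.0 was lost without nitrate replicate 1 or 2 (adjusted p = 0.078 and 0.065), without ammonium replicate 1 (0.097) and when only these regimes were fitted (0.067), over a range of 0.008 to 0.097. For Solyc03g026360.1.ITAG4.0 the same holds without nitrate replicate 3 (0.052) and when only these regimes were fitted (0.064), over a range of 0.0012 to 0.064. Without nitrate replicate 1, 2 or 3 or ammonium replicate 1, 2 genes were called higher with nitrate, and without ammonium replicate 2, 3 were called lower.

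Ammonium and urea differed in 5 of the 81 genes that were higher with ammonium and 3 that were lower (limma, adjusted p under 0.05), beside 7.09% and 3.97% of all tested genes, or 11.1% in either direction. Solyc02g084980.ITAG4.0 had 5.4, 8.67 and 8.58 FPKM with urea, below each of its ammonium libraries (log2 difference 0.87, standard error 0.19, adjusted p = 0.011). Solyc12g011370.ITAG4.0 on chromosome 12 gave 4.85, 4.37 and 4.05 FPKM with ammonium and 1.77, 2.91 and 3.01 FPKM with urea (log2 difference 0.62, standard error 0.16, adjusted p = 0.023). Solyc04g054500.ITAG4.0 was lower with ammonium, at 29.7, 33.7 and 32.2 FPKM against 37.7, 59.2 and 42.8 FPKM (log2 difference -0.51, standard error 0.14, adjusted p = 0.033).

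These calls depended on single libraries and on which regimes were fitted. When only ammonium and urea libraries were fitted, the calls of Solyc02g084980.ITAG4.0, Solyc12g011370.ITAG4.0 and Solyc04g054500.ITAG4.0 were lost. That of Solyc03g026360.1.ITAG4.0 was kept. Without urea replicate 1, 0 of the 81 genes were called higher with ammonium by limma (7 at an unadjusted p under 0.05), and Solyc02g084980.ITAG4.0, Solyc12g011370.ITAG4.0 and Solyc03g026360.1.ITAG4.0 were at an adjusted p of 0.055, 0.1 and 0.065. The count was 1 without ammonium replicate 1 or 2 and 3 without ammonium replicate 3 or nitrate replicate 1 or 3. With size factors it was 2, and the calls among all tested genes turned from 1339 higher and 749 lower with ammonium to 819 and 1045; quantile normalization gave 1003 and 879. The call of Solyc12g011370.ITAG4.0 was also lost without ammonium replicate 1 or 2 (adjusted p = 0.084 and 0.052), and that of Solyc04g054500.ITAG4.0 without ammonium replicate 1, 2 or 3 (0.11, 0.053 and 0.074) or urea replicate 2 (0.093). Over all 24 alternatives the adjusted p ranged from 0.0075 to 0.077 for Solyc02g084980.ITAG4.0, 0.02 to 0.1 for Solyc12g011370.ITAG4.0, 0.0028 to 0.065 for Solyc03g026360.1.ITAG4.0 and 0.014 to 0.12 for Solyc04g054500.ITAG4.0.

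In 12 of the 81 genes 1 form differed from both others by these tests, a grouping made after the values were seen. Each gene was counted in 1 group only, and the share of all tested genes is given below for each form and direction. Shares of the 81 lower with 1 form than with both others were 4.94% (nitrate), 1.23% (ammonium) and 3.7% (urea). All tested genes gave 1.86%, 0.206% and 4.3%. Shares higher with 1 form were 2.47%, 1.23% and 1.23%, beside 2.06%, 0.609% and 3.03%. Lower with nitrate than with both other forms were 4 genes, against a background of 1.86% of all tested genes: Solyc03g116910.ITAG4.0, Solyc08g075540.5.ITAG4.0, Solyc08g065610.ITAG4.0 and Solyc02g071090.ITAG4.0. Of these Solyc08g065610.ITAG4.0 was the most abundant, at 70, 62.7 and 62.7 FPKM with nitrate, 91.8, 96.8 and 83.8 FPKM with ammonium and 78.3, 92.3 and 85.4 FPKM with urea, and at 165 FPKM or more in every library without nitrogen. With each single library left out this group held 3 or 4 genes, and with only the regimes compared 1 gene.

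Lower with urea than with both other forms were 3 genes (background 4.3%): Solyc12g011370.ITAG4.0, Solyc01g098140.ITAG4.0 and Solyc04g080560.2.ITAG4.0. Solyc01g098140.ITAG4.0 had 5.67, 6.24 and 4.07 FPKM with nitrate, 3.94, 5.14 and 3.47 FPKM with ammonium and 2.34, 1.89 and 3.18 FPKM with urea, from 10.5 ± 0.147 FPKM in control roots (SD, n = 3). This group held 0 genes by limma without urea replicate 1 or ammonium replicate 1 or 2, and 1 gene with size factors. Higher with nitrate than with both other forms were 2 genes (background 2.06%), Solyc10g078590.ITAG4.0 and Solyc02g093090.1.ITAG4.0. The first had 29.6, 30.5 and 32 FPKM with nitrate, 16.8, 21.2 and 20.1 FPKM with ammonium and 15.2, 15.2 and 24.1 FPKM with urea. This group held 1 gene without any of nitrate replicate 1, 2 or 3 or ammonium replicate 1 or 3.

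The remaining 3 of the 12 were single genes. Solyc03g026360.1.ITAG4.0 was lower with ammonium than with both other forms (background 0.206%), Solyc02g084980.ITAG4.0 was higher with ammonium (0.609%) and Solyc02g079870.ITAG4.0 was higher with urea (3.03%). The last had 57.2, 54.4 and 61.8 FPKM with nitrate, 46.6, 59.1 and 48.9 FPKM with ammonium and 68.8, 71.9 and 78.8 FPKM with urea. It no longer met both tests without nitrate replicate 1 or 2 or urea replicate 3, Solyc03g026360.1.ITAG4.0 without nitrate replicate 3 or urea replicate 1, and Solyc02g084980.ITAG4.0 without any 1 of 12 of the 15 libraries.

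Chromosomes could be read from the identifiers. Chromosome 8 held 14 of the 81 genes, or 17.3%, beside 7.16% of the 13750 genes that met the level condition. Chromosome 4 held 11 (13.6% beside 8.49%) and chromosome 2 also 11 (13.6% beside 10.4%). Chromosomes 7 and 10 held 1 gene each, beside 7.48% and 6.65%, and chromosome 6 held 2, beside 8.87%. These shares are a description, without a test.

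**Figure D4:**
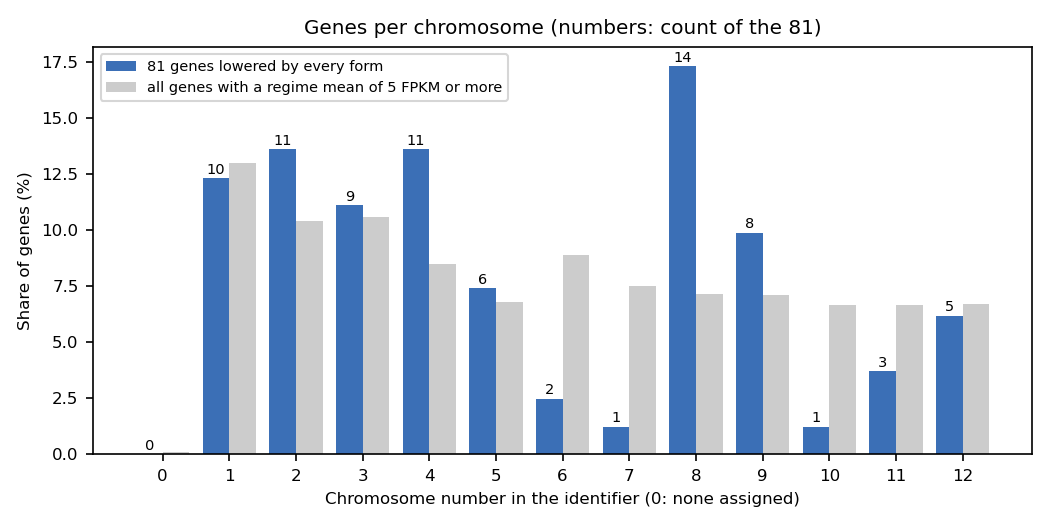
Blue bars give the share of the 81 genes on each chromosome, with their number above, and grey bars the share of the 13750 genes with a regime mean of at least 5 FPKM. Chromosome 8 stands highest at 17.3% against 7.16%, and chromosomes 7 and 10 lowest among those numbered 1 to 12 at 1.23%.

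Consecutive identifiers occurred in 2 places. On chromosome 2, Solyc02g071070.ITAG4.0, Solyc02g071080.ITAG4.0 and Solyc02g071090.ITAG4.0 follow each other. The first had control values of 75, 71 and 96.5 FPKM, followed by 60.3, 63.1 and 66.2 FPKM with iron alone, 19.6, 15 and 17 FPKM with nitrate, 18.5, 26 and 14.9 FPKM with ammonium and 17.8, 19.8 and 26 FPKM with urea. Its 3 forms overlapped, with 27.2%, 31.3% and 33.5% of the iron-alone level left.

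Solyc02g071080.ITAG4.0 was expressed at a lower level, 12.1 ± 0.809 FPKM in control roots, 11.5 ± 0.723 FPKM with iron alone, 5.12 ± 1.69 FPKM with nitrate, 5.26 ± 1.74 FPKM with ammonium and 4.63 ± 1.65 FPKM with urea (SD, n = 3). Solyc02g071090.ITAG4.0 differed between the forms: nitrate, at 6.71, 7.1 and 5.38 FPKM, lay below ammonium at 9.65, 11.6 and 9.65 FPKM (log2 difference -0.61, standard error 0.10, limma, adjusted p = 0.0022) and below urea at 8.99, 9.61 and 9.06 FPKM (log2 difference -0.47, standard error 0.10, adjusted p = 0.0053). For its neighbours these differences did not pass (adjusted p = 0.69 and 0.34 for Solyc02g071070.ITAG4.0, 0.96 and 0.79 for Solyc02g071080.ITAG4.0), and the difference between the genes was not tested. The next gene, Solyc02g071100.ITAG4.0, was below the level condition at 2.19 ± 0.722 FPKM in control roots, with 1.83 ± 0.419 FPKM with iron alone and 0.765 ± 0.115, 0.961 ± 0.578 and 1.02 ± 0.73 FPKM with nitrate, ammonium and urea (SD, n = 3). How alike the sequences of these genes are is not known here, so reads that fit more than 1 of them may have been shared out in the authors' counting.

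On chromosome 1 the pair was Solyc01g111250.ITAG4.0, given above for nitrate and ammonium, and Solyc01g111260.2.ITAG4.0. The second had 28.3 ± 2.76 FPKM in control roots, 24.3 ± 2.94 FPKM with iron alone and 15.2 ± 1.62, 15.4 ± 0.35 and 14 ± 2.15 FPKM with nitrate, ammonium and urea (SD, n = 3). With the same forms its neighbour had 7.61 ± 1.82, 3.38 ± 0.9 and 5.31 ± 1.48 FPKM (SD, n = 3). The gene before the pair, Solyc01g111240.ITAG4.0, was at 40 ± 1.89 FPKM in control roots and 40.6 ± 2.42 FPKM with nitrate (SD, n = 3) and did not share the pattern. The gene before that, Solyc01g111230.ITAG4.0, had the same order with a gap of 0.43, below the threshold: 110 ± 4.35 FPKM in control roots, 86.9 ± 16.7 FPKM with iron alone and 52.4 ± 4.66, 63.8 ± 6.87 and 52.9 ± 5.02 FPKM with nitrate, ammonium and urea (SD, n = 3).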

How the data were processed

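The labels' protocols describe total RNA isolated with a kit from frozen, powdered roots and mRNA libraries made from it. The authors deposited 1 table of FPKM per gene, not corrected for RNA composition. The submitters' processing notes name HISAT2 as the aligner; no version, genome build or FPKM tool is given in the sources used here. Columns were matched to samples by library name, and no 2 libraries were identical (0 pairs).

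Tests used log2(FPKM + 1), which understates changes of low genes. One limma model (limma 3.58.1, R 4.3.3) held a mean for each regime over the 15 libraries, with trended eBayes, two-sided p-values and Benjamini-Hochberg adjustment within a comparison, and was tested on simulated data. Genes were called at an adjusted p under 0.05. The 81 genes, lists and tests were chosen with earlier results of these data known. Named genes were the 2 with the widest gaps, the 2 most abundant, 2 on each side of the threshold, at most 2 called per comparison and direction, and consecutive identifiers. Because 0 identifiers matched the annotation table, 19 gene lists could not be used. Each test was repeated with a pseudocount of 0.1, without a filter, on genes averaging 5 FPKM or more, under 3 other scalings (size factors, equal totals, quantiles), without the variance trend, on the compared regimes alone, with replicate number as a blocking factor, and without each library in turn.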

Additional observations from a re-analysis of the deposited data

How the results depend on the processing

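A gap of at least 1 would leave 22 of the 81 genes. Other rules and scalings gave 68 (size factors) to 103 genes (overlapping libraries allowed), and single libraries left out gave 72 to 95, with 50 of the 81 chosen in all 15 runs. As the choice of genes imposes when libraries are left out, the median log2 changes of the 81 genes kept their sign. Leaving out single libraries, they ranged from -1.14 to -1.03, -1.17 to -1.09 and -1.41 to -1.22 for nitrate, ammonium and urea against control, and from -1.0 to -0.90, -1.06 to -0.94 and -1.17 to -1.01 against iron alone. Genes called lower with iron alone than control numbered 4 with equal FPKM totals and 1 to 4 without single libraries. For nitrate against ammonium, fitting only these groups gave 2 higher and 2 lower, and single libraries left out gave 2 to 5 and 3 to 5. For nitrate against urea, fitting only these groups gave 8 higher, and single libraries 11 to 17 higher and 4 to 5 lower. For ammonium against urea, 2 were higher with no filter, with size factors and with quantile normalization, 3 with no variance trend, 1 when only these groups were fitted, and 0 to 5 without single libraries. The causes were not tested. Of 336 recomputed values of single genes 43 lost a call, and of 144 counts of genes that 1 form set apart 34 moved by more than 1.5 times. When only the groups compared were fitted, a smaller share of all tested genes was called in each comparison. This share fell from 6.4% to 3.75% for iron and from 7.06% to 4.19% for nitrate against ammonium. It fell from 19.6% to 13.9% for nitrate against urea and from 11.1% to 4.76% for ammonium against urea.

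Same-numbered replicates did not deviate together: their correlations ran from -0.11 to 0.14, with 3 of 30 over 0.1, and 5 of 15 libraries correlated best with their own number. With the replicate number as a block the counts stayed within 1.5 times, at 0 higher and 3 lower for iron alone, 5 and 5 for nitrate against ammonium, 15 and 5 for nitrate against urea, and 4 and 4 for ammonium against urea. Without read counts no counting interval can be given, and differences of genes at a few FPKM are the least certain.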
